A study of Solanum lycopersicum with 84 samples.

Results

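The endosperm of tomato seeds (Solanum lycopersicum cv. Moneymaker) at 42 days after flowering (DAF) was compared with the endosperm at 35 DAF. Each age had 3 libraries, chosen by the tissue and age in the sample labels, and these 6 libraries are part of a series of 84. All plants were of the same cultivar, grown in a greenhouse with no other treatment, and seeds were taken by hand from the middle section of the fruit. Plants were grown in different years, and the labels do not give the year of each library. Embryo, endosperm and seed coat were dissected by hand, 10 to 20 seeds were pooled in each sample, and polyadenylated RNA was sequenced as single-end reads. The labels and methods name the 3 samples of a group as biological replicates without saying whether they came from different plants. The p-values thus measure the spread between such pools within groups, estimated over all 84 libraries and not over these 6 alone. Embryo and seed coat of 42 and 35 DAF, also with 3 libraries each, were used to find where the endosperm differed.

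The endosperm arises from the second fertilization event in flowering plants and surrounds the embryo. In tomato it remains alive in the mature seed, stores protein, oil and cell wall polysaccharides, and its cap in front of the root tip takes part in the control of germination. During seed filling, transcription factors of the LAFL network (LEC1, ABI3, FUS3 and LEC2 in Arabidopsis) and WRI1 direct the storage of reserves. As maturation proceeds, genes that respond to abscisic acid (ABA) take over, among them those of late embryogenesis abundant (LEA) proteins, which protect cells in the dry state. In bulk tissue, fewer cells of a type and less RNA per cell cannot be told apart.

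The 6 libraries held between 21485661 and 21996990 estimated counts each, within the range of 16908762 to 22734314 of the whole series. Levels are given as CPM, the counts of a gene per 1000000 counts of its library, scaled with TMM factors (trimmed mean of M values), which set the libraries on a common scale through genes of intermediate change. Of 33976 genes, 24676 passed the filter on low counts and entered edgeR's quasi-likelihood F test, with p-values adjusted by the method of Benjamini and Hochberg. A gene was called differentially expressed when its absolute log2 fold change was above 1 and its adjusted p under 0.05. Between 42 and 35 DAF, 3057 genes (12.4% of those tested) were called higher and 3710 (15.0%) lower at 42 DAF, which is 27.4% called in either direction. The median log2 fold change over all genes tested was 0.00, that of the genes called higher was 1.88 and that of the genes called lower was -2.28. Changes of more than 5 on the log2 scale were called for 256 genes that rose and 414 that fell. Every 42 DAF library was above every 35 DAF library for 25.6% of the genes tested, and below every 35 DAF library for 26.9%. Higher calls made up 45.2% of all calls with TMM factors, but 29.4% when only library totals were used. With library totals the median log2 fold change over all genes tested was -0.31.

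The libraries of 1 age were not all alike. Replicate 1 of the 42 DAF endosperm stood closer to the 49 DAF endosperm than its partners did. Its log2 levels had a correlation of 0.985 across genes with replicate 1 of 49 DAF, above its correlations of 0.976 and 0.959 with replicates 2 and 3 of its own age. Relative to the mean of 35 DAF, the genes called higher had a median shift of 1.42 in replicate 1 of 42 DAF, 1.15 in replicate 2 and 1.05 in replicate 3, against 1.51 to 1.54 in the 49 DAF libraries, on the log2(CPM + 1) scale. Without replicate 1, 2651 genes were called higher and 3180 lower between 42 and 35 DAF, and 79.7% of the higher and 79.6% of the lower calls were kept. In the next interval, which shares the 42 DAF libraries, 2282 genes (9.25%) were called higher and 2589 (10.5%) lower at 49 DAF than at 42 DAF.

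**Figure D1:**
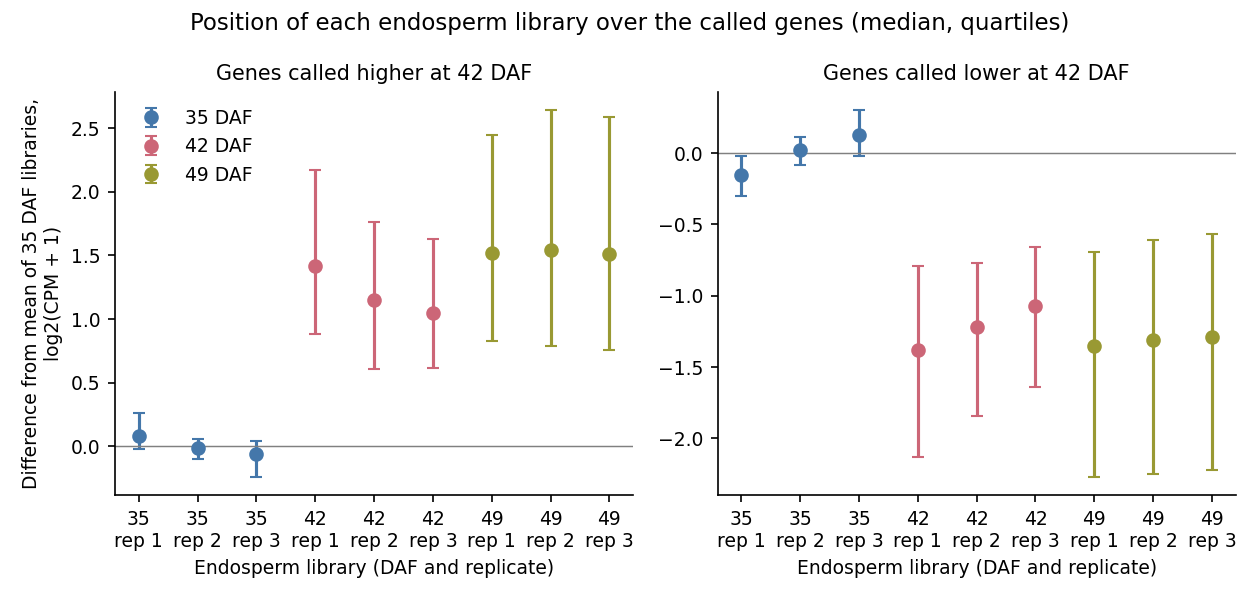
Position of each endosperm library of 35, 42 and 49 DAF, as the difference from the mean of the 35 DAF libraries in log2(CPM + 1), for genes called higher (left) and lower (right) at 42 DAF. Points are medians over genes and bars run from the lower to the upper quartile. Among the 42 DAF libraries, replicate 1 lies farthest from 35 DAF in both panels, with medians of 1.42 and -1.38.

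Markers of the other tissues were also unequal between the libraries. Tissue markers were taken from the 49 DAF libraries, as genes at least 50 times higher in 1 tissue than in each other tissue. Embryo and seed coat markers also averaged at least 10 CPM in their tissue at 35, 42 and 49 DAF. For endosperm markers this was asked at 49 DAF only. The 31 embryo markers summed to 345, 384 and 2390 CPM in the 42 DAF endosperm libraries, which is 2.39%, 2.66% and 16.6% of their level in the embryo of that age. In the 35 DAF endosperm they reached 2.24%, 3.45% and 5.29%. Replicate 3 of 42 DAF thus held more embryo marker RNA than the other 5 libraries, with all 31 markers above 1 CPM, and no embryo marker was at 0 in any of the 6. The 252 seed coat markers summed to 0.814%, 1.37% and 1.61% of their seed coat level in the 42 DAF libraries, and to 3.84%, 3.92% and 4.17% in the 35 DAF libraries, without overlap. Over the single seed coat markers, 39 of 252 were called higher and 69 lower, with a median log2 fold change of -0.17. Between 2 and 16 of them were at 0 in the 42 DAF libraries, against 7 to 9 in the 35 DAF libraries. The 152 endosperm markers summed to 86000, 86400 and 73000 CPM at 42 DAF, against 74100, 62900 and 52700 CPM at 35 DAF. The most abundant marker at 35 DAF was Solyc10g054900.2.1, with 5230, 34400 and 35800 CPM at 42 DAF, against 52400, 41100 and 34500 CPM at 35 DAF. In contrast, 95 of the 152 endosperm markers were called higher and 5 lower, with a median log2 fold change of 2.48. As these markers had to reach their level at 49 DAF only, a rise towards that age is in part built into their choice. Of the 31 embryo markers, 9 were called higher and 1 lower. With replicate 3 of 42 DAF left out, 3118 genes were called higher and 3897 lower, and 90.5% of the higher and 90.0% of the lower calls were kept. What part these differences between libraries have in the results was not tested.

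Among 12 known regulators of seed maturation, 5 rose, 2 fell and 5 were not called, with a median log2 fold change of 0.75. The shares over all genes tested were 12.4% called higher and 15.0% called lower. SlABI5 (Solyc09g009490.4.1), orthologous to the basic leucine zipper factor through which ABA acts on late maturation genes in Arabidopsis, had 411, 349 and 243 CPM at 42 DAF, against 37.8, 25.4 and 18.5 CPM at 35 DAF. All 42 DAF libraries were thus well above all 35 DAF libraries, and the rise was 3.62 on the log2 scale (standard error 0.24, adjusted p = 4.01e-19). The gene rose more than in the embryo, where it had a log2 fold change of 0.97, and the difference between the tissues was 2.65 (standard error 0.32, adjusted p = 1.88e-09).

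The relatives of DELAY OF GERMINATION 1, a gene that promotes seed dormancy in Arabidopsis, were low at 35 DAF and rose. SlDOG1-1 (Solyc02g072570.2.1) had 59.5, 23.3 and 12.4 CPM at 42 DAF, against 1.14, 0.555 and 0.904 CPM at 35 DAF (log2 fold change 5.18, standard error 0.45, adjusted p = 1.19e-14). SlDOG1-2 (Solyc03g006120.4.1) had 135, 76.8 and 52.2 CPM at 42 DAF, against 8.42, 4.64 and 1.51 CPM at 35 DAF (log2 fold change 4.19, standard error 0.44, adjusted p = 6.58e-12). In both genes the stages did not overlap and replicate 1 was the highest 42 DAF library, and without it the log2 fold changes were 4.35 and 3.74. Without replicate 1 of 35 DAF that of SlDOG1-2 was 4.85. SlDOG1-1 rose more than in the embryo, by 3.69 on the log2 scale (adjusted p = 1.18e-06). The embryo averaged 24.3 CPM of this gene at 42 DAF and 8.68 CPM at 35 DAF. For SlDOG1-2 the difference was 0.35 (standard error 1.16, adjusted p = 0.932), in an embryo where it averaged 2.86 CPM at 42 DAF and 0.195 CPM at 35 DAF.

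SOMNUS (Solyc07g053750.1.1), a zinc finger gene whose Arabidopsis counterpart represses germination, had 1270, 474 and 505 CPM at 42 DAF, against 130, 168 and 151 CPM at 35 DAF. It rose by 2.33 on the log2 scale (standard error 0.29, adjusted p = 9.19e-10). Replicate 1 stood far above the others, and without it the log2 fold change was 1.71. The ABI3 orthologues, which encode B3 domain factors of the LAFL network, differed from each other. SlABI3-2 (Solyc06g083590.4.1) had 53.9, 24.4 and 22.6 CPM at 42 DAF, against 4.16, 4.89 and 6.28 CPM at 35 DAF, and rose by 2.71 on the log2 scale (standard error 0.43, adjusted p = 3.28e-07). SlABI3-1 (Solyc06g083600.3.1) had 184, 203 and 167 CPM at 42 DAF, against 134, 126 and 95.5 CPM at 35 DAF, and its log2 fold change of 0.64 did not reach the threshold. SlABI3-2 was thus low at 35 DAF, an age at which SlABI3-1 already had 95.5 CPM or more in each library. In the embryo SlABI3-2 had a log2 fold change of -0.42, and the endosperm change exceeded it by 3.13 (adjusted p = 2.51e-05). The embryo level was higher at both ages, with means of 88.1 CPM at 42 DAF and 118 CPM at 35 DAF.

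SlFUS3 (Solyc02g094460.2.1) and SlWRI1 (Solyc01g096860.3.1), regulators of seed filling, were the 2 regulators that fell. SlFUS3 had 3.60, 13.0 and 48.4 CPM at 42 DAF, against 87.5, 100 and 85.0 CPM at 35 DAF (log2 fold change -2.07, standard error 0.51, adjusted p = 0.000647). SlWRI1 had 6.72, 11.6 and 48.2 CPM at 42 DAF, against 58.1, 67.2 and 60.9 CPM at 35 DAF (log2 fold change -1.48, standard error 0.47, adjusted p = 0.00765). No 42 DAF library reached the 35 DAF level, but replicate 3, the library with 16.6% of the embryo marker level, was several times above its partners for both genes. SlFUS3 is itself 1 of the 31 embryo markers, which were chosen at 49 DAF. In the embryo of 35 DAF it averaged 223 CPM, against the 85.0 to 100 CPM of the 35 DAF endosperm. The summed markers were at only 2.24% to 5.29% of their embryo level there, so this marker is not particular to the embryo at 35 DAF. In the embryo of 42 DAF, SlFUS3 averaged 194 CPM and SlWRI1 255 CPM. Without replicate 3 the log2 fold changes were -3.45 (adjusted p = 1.57e-06) and -2.76 (adjusted p = 1.54e-05). The SlWRI1 call was lost without replicate 1 of 42 DAF (log2 fold change -1.05, adjusted p = 0.0880), without replicate 2 of 42 DAF (-1.18) and in a fit of the 6 libraries alone (adjusted p = 0.103). In that fit of 6 libraries SlFUS3 also missed the threshold (adjusted p = 0.0667). At 49 DAF the endosperm had 0.353 to 0.620 CPM of SlFUS3 and 0.412 to 1.61 CPM of SlWRI1.

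The other 4 regulators were not called either. PROCERA (Solyc11g011260.1.1), the tomato DELLA repressor of gibberellin responses, had 93.5, 91.3 and 84.9 CPM at 42 DAF, against 59.2, 49.1 and 41.4 CPM at 35 DAF. The stages did not overlap, but the difference of 0.85 on the log2 scale (standard error 0.20, adjusted p = 0.000391) lay under the fold threshold. The ABI5-like gene Solyc01g008980.3.1 had 14.6, 9.82 and 13.2 CPM at 42 DAF, against 10.2, 9.28 and 8.78 CPM at 35 DAF, with overlap between the stages. The ABI4 orthologues, ABA response factors, were scarcely detected in endosperm. SlABI4-1 (Solyc03g095973.1.1) had at most 1.21 CPM in any of the 6 libraries, and SlABI4-2 (Solyc03g095977.1.1) had 1.56, 0.910 and 6.65 CPM at 42 DAF, against 0.248, 2.07 and 4.26 CPM at 35 DAF.

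**Figure D2:**
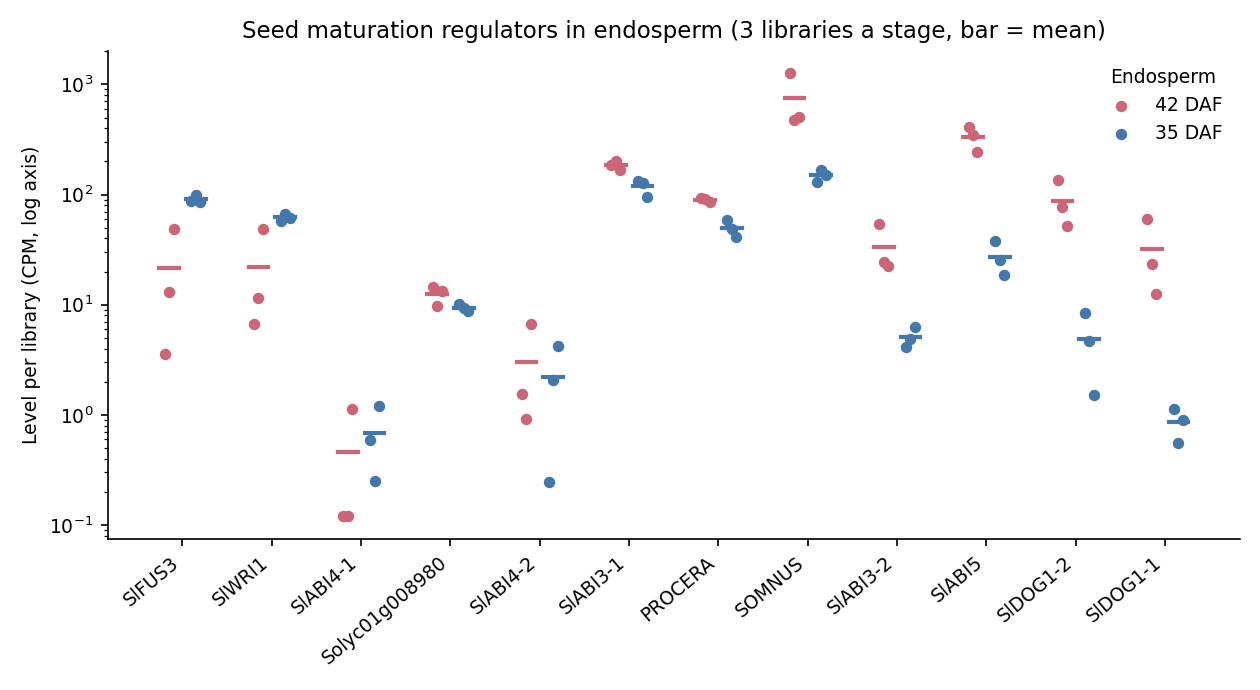
Levels of the 12 seed maturation regulators in endosperm, in CPM with TMM factors on a log axis, with 1 point per library and a bar at the mean of the 3 libraries of 42 DAF (red) and of 35 DAF (blue). Genes are ordered by log2 fold change. SlDOG1-1 has the largest rise among them, with all 42 DAF libraries at 12.4 CPM or more and no 35 DAF library above 1.14 CPM, and SlFUS3 and SlWRI1 fell.

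Genes of desiccation protection rose together. Of 28 tested genes described as LEA proteins, dehydrins or seed maturation proteins, 26 rose, 1 fell and 1 was not called, with a median log2 fold change of 3.45. The descriptions used to build this list and the similar ones below come from the study's tables, which are complete for modules of late-rising genes and partial for others, so the described genes lean towards genes that rose. Among the first 1006 tested genes of the study's gene table, which were not chosen by module, 17.1% were called higher and 16.5% lower. Summed over the list, the LEA transcripts reached 49200, 30200 and 24900 CPM at 42 DAF, against 4630, 3700 and 3150 CPM at 35 DAF. The sums of the 2 ages were far apart, and replicate 1 was again the highest.

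A dehydrin (Solyc02g084840.3.1) was the most abundant member, with 7910, 4300 and 3190 CPM at 42 DAF, against 413, 342 and 420 CPM at 35 DAF (log2 fold change 3.71, standard error 0.35, adjusted p = 1.59e-13). The 11 kDa LEA gene Solyc10g078770.2.1 had 6940, 3540 and 3650 CPM at 42 DAF, against 459, 300 and 258 CPM at 35 DAF (log2 fold change 3.80). Dehydrins and other LEA proteins are highly hydrophilic and are thought to stabilise membranes and proteins during drying. The largest rise of the list was that of Solyc02g062770.2.1, with 883, 291 and 217 CPM at 42 DAF, against 6.19, 4.19 and 1.85 CPM at 35 DAF (log2 fold change 6.84, standard error 0.50, adjusted p = 2.36e-17), or 5.97 without replicate 1 of 42 DAF. A homologue of low-temperature-induced 65 kDa protein (Solyc01g009660.3.1) had 643, 292 and 278 CPM at 42 DAF, against 6.69, 6.10 and 5.12 CPM at 35 DAF (log2 fold change 6.08). A LEA protein Dc3 homologue (Solyc03g116390.4.1) had the smallest rise called in the list, with 3030, 2880 and 2340 CPM at 42 DAF, against 946, 845 and 719 CPM at 35 DAF (log2 fold change 1.72). The size of the rise thus differed widely between members, and those with the largest folds were low at 35 DAF.

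The LEA gene Solyc02g085330.1.1 went the other way, with 0.780, 0.728 and 3.98 CPM at 42 DAF, against 6.09, 6.76 and 11.1 CPM at 35 DAF (log2 fold change -2.12, adjusted p = 0.000288, and -3.40 without replicate 3 of 42 DAF). In the embryo the same gene averaged 25.8 CPM at 42 DAF and 7.80 CPM at 35 DAF, and the difference between the tissues was -3.85 (standard error 0.68, adjusted p = 1.46e-05). It was the single LEA gene whose change was below that of the embryo, while 19 of the 28 rose more than in the embryo, where 24 rose and the median log2 fold change was 1.84. Over all genes tested, the log2 fold change was above that of the embryo in 7.25% and below it in 5.26%. LEA genes form families with similar sequences, so counts of close paralogues may be partly exchanged.

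**Figure D3:**
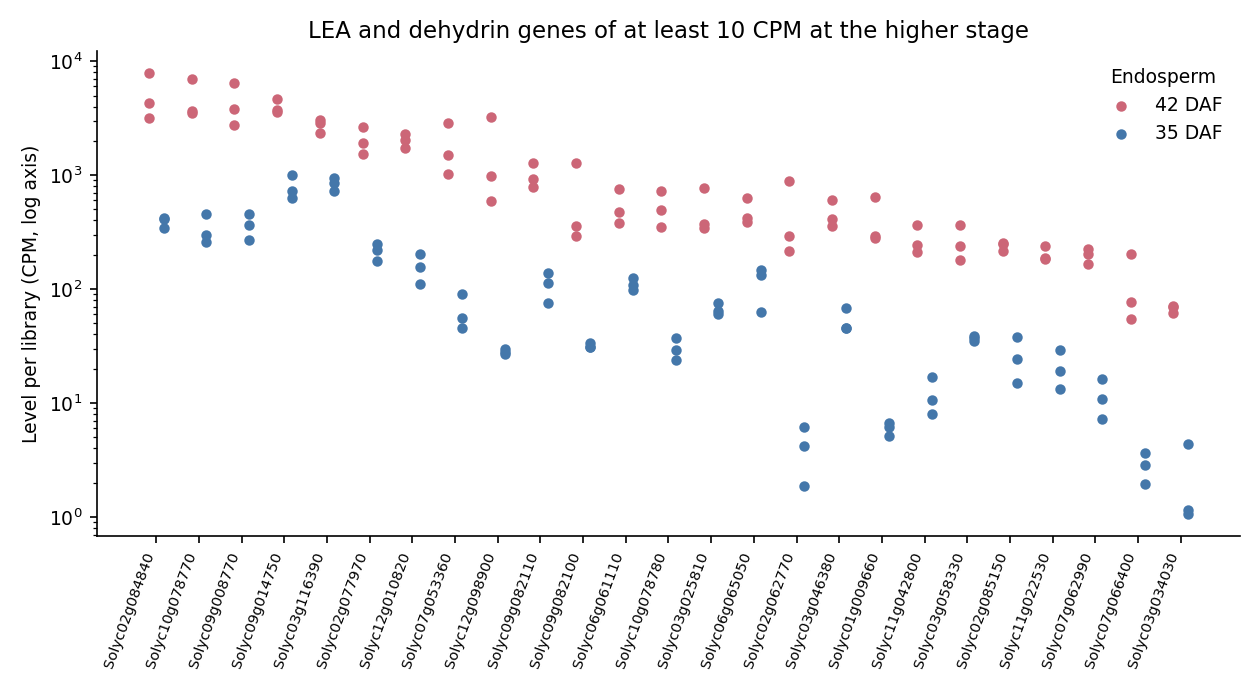
Levels of the LEA and dehydrin genes that averaged 10 CPM or more at either age, in CPM with TMM factors on a log axis, with 1 point per endosperm library of 42 DAF (red) and 35 DAF (blue). Genes are ordered by level. In each gene shown all 42 DAF libraries lie above all 35 DAF libraries.

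All 11 small heat shock protein and heat stress factor genes with a description rose, with a median log2 fold change of 2.43. Small heat shock proteins bind unfolding proteins and are a regular part of the late maturation programme of seeds. The class I gene Solyc04g072250.4.1 had 2940, 2100 and 1680 CPM at 42 DAF, against 253, 193 and 132 CPM at 35 DAF (log2 fold change 3.54, standard error 0.40, adjusted p = 6.60e-11). Heat stress transcription factor A-5 (Solyc12g098520.2.1) had 106, 59.5 and 50.3 CPM at 42 DAF, against 31.3, 28.6 and 30.6 CPM at 35 DAF (log2 fold change 1.25). Without replicate 1 of 42 DAF this factor was at 0.86, under the fold threshold, and the other 10 were still called. In contrast to the LEA genes, none rose more than in the embryo and 5 rose less, and the embryo had a median log2 fold change of 3.48. The class I gene Solyc06g076520.1.1, for instance, had a log2 fold change of 2.11 in the endosperm and 3.83 in the embryo (difference -1.71, standard error 0.51, adjusted p = 0.00968). This gene averaged 73.1 CPM in the embryo at 35 DAF, against 241 CPM in the endosperm, and 1040 CPM in both tissues at 42 DAF.

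**Figure D4:**
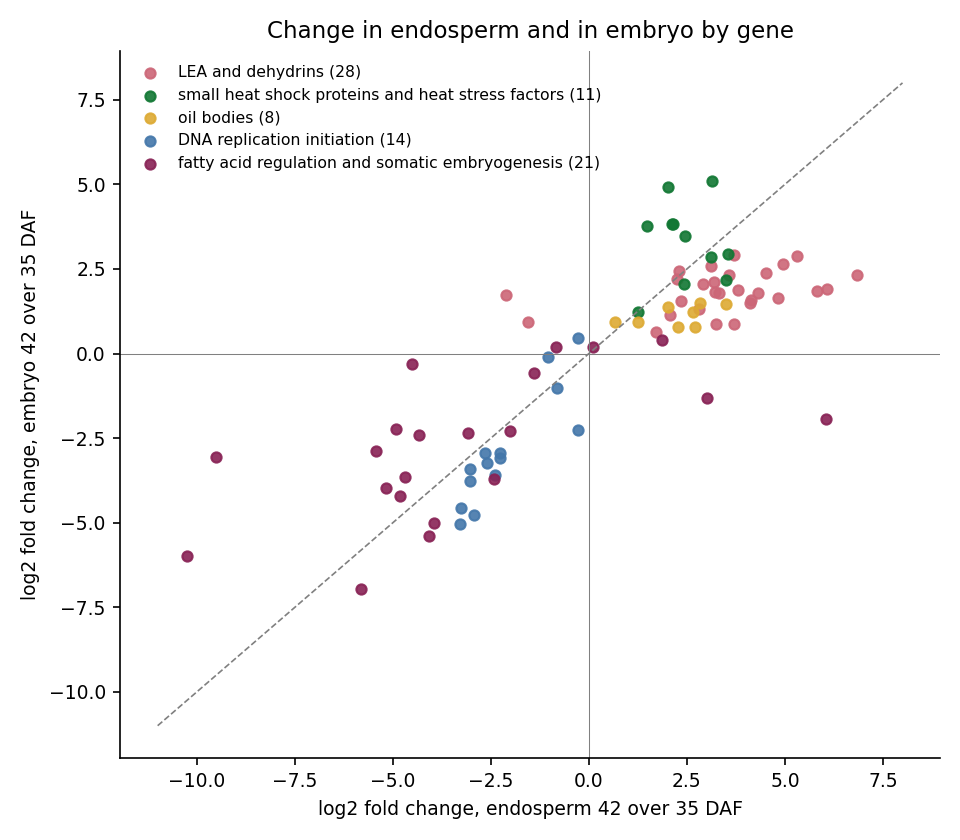
Log2 fold change between 42 and 35 DAF in endosperm (x axis) and in embryo (y axis), with 1 point per gene of 5 lists and a dashed line of equal change. Most LEA genes (19 of 28 by the test of the difference) lie on the endosperm side of the line, and 5 of 11 heat shock genes on the embryo side.

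Other protective genes were among those that rose. Of 8 genes described under protection and repair, 6 rose and 2 fell. A 1-Cys peroxiredoxin (Solyc03g096040.3.1), an antioxidant enzyme typical of seeds, had 6960, 4300 and 3370 CPM at 42 DAF, against 730, 653 and 492 CPM at 35 DAF (log2 fold change 2.96, standard error 0.26, adjusted p = 8.02e-15), and rose more than in the embryo by 2.44 (adjusted p = 1.24e-07). The embryo averaged 3070 CPM of this gene at 42 DAF and 2130 CPM at 35 DAF. Both poly(ADP-ribose) polymerase genes, which act in DNA repair, rose. Solyc11g067250.3.1 had 820, 494 and 623 CPM at 42 DAF, against 40.8, 35.9 and 40.2 CPM at 35 DAF, and Solyc01g009470.2.1 had 168, 93.8 and 191 CPM at 42 DAF, against 5.55, 6.96 and 14.0 CPM at 35 DAF. Their log2 fold changes of 4.05 and 4.09 exceeded those of the embryo by 3.28 and 3.52. The malic enzyme genes moved apart, as Solyc12g008430.3.1 had 1270, 634 and 403 CPM at 42 DAF, against 16.2, 6.0 and 3.87 CPM at 35 DAF (log2 fold change 6.47, and 7.29 without replicate 1 of 35 DAF), while Solyc08g066360.3.1 had at most 0.182 CPM at 42 DAF, against 2.38, 6.20 and 11.1 CPM at 35 DAF (log2 fold change -5.71, and -5.09 without replicate 3 of 35 DAF).

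Galactinol synthases, which start the synthesis of raffinose family oligosaccharides, also moved apart. Galactinol synthase 1 (Solyc01g100830.2.1) had 1340, 715 and 468 CPM at 42 DAF, against 124, 135 and 138 CPM at 35 DAF (log2 fold change 2.67, standard error 0.42, adjusted p = 3.67e-07). GolS2 (Solyc02g062590.3.1) had 0.120, 0.424 and 0.891 CPM at 42 DAF, against 15.4, 13.2 and 10.2 CPM at 35 DAF (log2 fold change -4.74, adjusted p = 1.60e-08, and -5.54 without replicate 3 of 42 DAF). The gene that was abundant at 42 DAF thus rose while GolS2 dropped below 1 CPM in each library. A further galactinol synthase gene (GolS, Solyc01g079170.3.1) had 36.6, 33.2 and 43.8 CPM at 42 DAF, against 24.9, 19.4 and 12.5 CPM at 35 DAF, and was not called (adjusted p = 0.0649), but passed without replicate 1 of 35 DAF (log2 fold change 1.25). The rise of galactinol synthase 1 was smaller than in the embryo, where the log2 fold change was 5.17 (difference -2.51, adjusted p = 0.00079). The embryo averaged 526 CPM of this gene at 42 DAF and 14.7 CPM at 35 DAF.

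The 2 vicilin-like genes among the described storage protein genes rose, as did most described oil body genes. Abundant transcripts without a description were not in these lists. The vicilin-like gene Solyc09g065470.3.1, a 7S storage globulin relative, had 13200, 7670 and 6290 CPM at 42 DAF, against 2390, 2480 and 2000 CPM at 35 DAF (log2 fold change 1.98, standard error 0.27, adjusted p = 1.29e-08). Another vicilin-like gene (Solyc02g085590.4.1) had 5240, 5290 and 4150 CPM at 42 DAF, against 1550, 1340 and 955 CPM at 35 DAF (log2 fold change 1.93). Of the 4 described storage genes these 2 rose, 1 was called lower at under 1 CPM, a call lost when any 42 DAF library was left out, and 1 was not called. The median log2 fold change of the 4 was -1.29, or 0.36 when genes without a count at an age were set to their bound. Of 8 oil body genes, 7 rose and 1 was not called, with a median log2 fold change of 2.47. Oleosins coat the oil bodies of seeds, and the oleosin Solyc06g034040.1.1 had 6690, 6550 and 6170 CPM at 42 DAF, against 2880, 2940 and 2300 CPM at 35 DAF (log2 fold change 1.26, standard error 0.23, adjusted p = 6.52e-06). With library totals its log2 fold change was 0.93, under the threshold. The oil body-associated gene Solyc02g071760.4.1 had the largest rise of the list, with 1550, 1320 and 1070 CPM at 42 DAF, against 140, 124 and 83.4 CPM at 35 DAF (log2 fold change 3.51), and 5 of the 8 rose more than in the embryo.

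Genes that build fatty acids did not follow the oil body genes. Of 5 genes described as acting in fatty acid synthesis, none rose and 1 fell, with a median log2 fold change of -0.23 that turned positive without replicate 1 of 42 DAF (0.32) or replicate 1 of 35 DAF (0.19). The shares over all genes tested were 12.4% called higher and 15.0% called lower. An acyl carrier protein gene (Solyc06g054510.4.1), whose product carries the growing acyl chain, had 12.7, 22.8 and 44.4 CPM at 42 DAF, against 79.5, 100 and 102 CPM at 35 DAF (log2 fold change -1.82, standard error 0.30, adjusted p = 7.95e-07), and -2.41 without replicate 3 of 42 DAF. An omega-3 fatty acid desaturase gene (Solyc06g051400.3.1) had 15.3, 18.3 and 42.1 CPM at 42 DAF, against 34.9, 40.6 and 48.2 CPM at 35 DAF, and was called lower only without replicate 3 of 42 DAF (log2 fold change -1.30, adjusted p = 0.000448) or with library totals (-1.06). In both genes the highest 42 DAF library was replicate 3, the one with the raised embryo markers, and the embryo averaged 132 and 166 CPM of these genes at 42 DAF.

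The list of fatty acid regulation and somatic embryogenesis genes had, with the jasmonic acid metabolism list, the lowest median among the lists of 5 or more tested genes. It is taken from ontology terms that the study found enriched in modules of these same samples, as are the next lists, so their directions are not independent evidence. According to the study, these terms hold relatives of LEC1-like, a subunit of the NF-Y transcription factor that acts with LAFL factors in seed filling. Of 21 tested genes, 15 fell, 3 were called higher and 3 were not called, with a median log2 fold change of -4.08. Their summed level was 127, 307 and 505 CPM at 42 DAF, against 2010, 2160 and 2190 CPM at 35 DAF. The most abundant member, Solyc07g065563.1.1, had 3.06, 27.7 and 65.1 CPM at 42 DAF, against 462, 494 and 514 CPM at 35 DAF (log2 fold change -3.94, standard error 0.65, adjusted p = 9.49e-07), and -4.99 without replicate 3 of 42 DAF. Its 42 DAF libraries differed strongly among themselves, yet the highest of them was several times below the lowest of 35 DAF, and the 49 DAF libraries averaged 1.58 CPM. This gene averaged 0.490 CPM in the embryo of 42 DAF and 15.7 CPM in that of 35 DAF, and 1.36 and 15.5 CPM in the seed coat. Solyc01g107250.3.1 fell less, with 16.1, 98.6 and 97.0 CPM at 42 DAF, against 254, 263 and 334 CPM at 35 DAF (log2 fold change -2.01). Solyc03g112890.1.1 had no count at 42 DAF, against 5.35, 6.46 and 9.21 CPM at 35 DAF, and was at least 38.9-fold lower at 42 DAF, with a floor of 3 counts per library. The 3 genes called higher had their highest level in replicate 3 of 42 DAF, for example 38.0 CPM against 7.20 and 5.03 CPM in its partners for Solyc07g018290.4.1, which is also 1 of the 31 embryo markers, and none of the 3 was called without that library.

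The jasmonic acid metabolism list fell almost as a whole, with 20 of 21 tested genes lower, none higher and a median log2 fold change of -4.09. Jasmonates are oxylipin hormones of defence and development. Solyc11g050930.1.1 had 0.480, 5.40 and 7.49 CPM at 42 DAF, against 75.9, 83.4 and 64.1 CPM at 35 DAF (log2 fold change -4.06, standard error 0.46, adjusted p = 7.43e-11), and -4.66 without replicate 3 of 42 DAF. Solyc05g011900.1.1 had 0.240, 4.12 and 3.74 CPM at 42 DAF, against 66.9, 76.4 and 60.6 CPM at 35 DAF (log2 fold change -4.65). In both genes replicate 1 was far below its partners, and the 49 DAF endosperm averaged 0.245 and 0.304 CPM. Solyc06g073060.3.1 was the member that was not called, with 42.5, 50.3 and 34.8 CPM at 42 DAF, against 24.6, 23.7 and 20.0 CPM at 35 DAF (log2 fold change 0.90), except without replicate 3 of 42 DAF (1.03). The files give no description of these genes, and the study states that the term also holds genes of other hormones. Outside this list, the gene described as jasmonic acid 2 (Solyc12g013620.2.1) rose, with 271, 218 and 189 CPM at 42 DAF, against 43.5, 31.3 and 33.9 CPM at 35 DAF (log2 fold change 2.64).

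Genes of DNA replication initiation, which license and fire replication origins, fell in the endosperm. Of 14 tested genes, 11 fell and none rose, with a median log2 fold change of -2.51. Solyc11g040120.3.1 had 5.58, 8.37 and 11.3 CPM at 42 DAF, against 33.5, 42.5 and 45.3 CPM at 35 DAF (log2 fold change -2.26, standard error 0.48, adjusted p = 7.77e-05). Solyc01g110130.3.1 had 2.22, 4.73 and 3.86 CPM at 42 DAF, against 17.8, 25.4 and 25 CPM at 35 DAF (log2 fold change -2.65, standard error 0.40, adjusted p = 9.94e-08). The stages did not overlap for either gene. The list had a median log2 fold change of -3.16 in the embryo and of 1.73 in the seed coat, and for Solyc01g110130.3.1 the endosperm lay below the seed coat change by 4.30 on the log2 scale (difference -4.30, adjusted p = 3.38e-09) and 0.30 above the embryo change (adjusted p = 0.796). Of 5 described cell division genes, 1 rose, a ribonucleotide reductase subunit that makes DNA precursors (Solyc03g112570.2.1), with 94.6, 65.4 and 53.5 CPM at 42 DAF, against 28.1, 26.4 and 26.7 CPM at 35 DAF. A cyclin A1 gene (Solyc10g024495.1.1) had 7.86, 7.03 and 8.50 CPM at 42 DAF, against 9.85, 6.91 and 6.58 CPM at 35 DAF, with overlapping stages.

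In the secondary cell wall list, 21 of 47 tested genes were lower at 42 DAF, 1 was higher and 25 were not called. The median log2 fold change was -2.31, or -1.91 when genes without a count at an age were set to their bound. On the log2(CPM + 1) scale the median shift was only -0.39, -0.33 and -0.32 in the 42 DAF libraries. Many members were thus low at both ages, and their fold changes are less certain. Solyc03g097050.3.1 had 12.5, 13.3 and 13.7 CPM at 42 DAF, against 76.3, 96.2 and 96.3 CPM at 35 DAF (log2 fold change -2.76, standard error 0.62, adjusted p = 0.000172). This gene averaged 184 CPM in the seed coat at 42 DAF and 128 CPM at 35 DAF, above the endosperm, and the summed seed coat markers were also lower in the 42 DAF endosperm libraries, at 0.814% to 1.61% of their seed coat level, against 3.84% to 4.17% at 35 DAF, although their median log2 fold change was -0.17. The list had 25 of 47 genes lower in the seed coat itself, with a median of -2.57, and 10 lower in the embryo, with a median of -1.82. Whether the fall of this list goes with that of the summed seed coat markers was not tested. In the xyloglucan list 9 of 21 genes were lower and 2 higher, against 15.0% and 12.4% over all genes tested. The most abundant member, Solyc03g093110.3.1, had 19.9, 28.7 and 29.0 CPM at 42 DAF, against 74.6, 141 and 93.5 CPM at 35 DAF (log2 fold change -1.99, adjusted p = 0.0180). This call was lost without replicate 1 of 42 DAF (adjusted p = 0.0696) and without replicate 2 of 35 DAF (adjusted p = 0.0705), and the gene averaged 101 CPM in the seed coat at 42 DAF.

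Not all cell wall genes fell. Of 7 genes described as other cell wall enzymes, 4 rose and none fell. A xyloglucan endotransglucosylase/hydrolase (Solyc07g006870.4.1), which cuts and rejoins xyloglucan chains, had 216, 307 and 233 CPM at 42 DAF, against 14.5, 3.28 and 2.28 CPM at 35 DAF (log2 fold change 5.24, standard error 0.42, adjusted p = 3.05e-16), and 6.50 without replicate 1 of 35 DAF. It averaged 67.2 CPM at 49 DAF, so that 42 DAF had the highest mean of the 3 ages. A mannose-6-phosphate isomerase gene (Solyc02g086090.4.1), whose product links mannose to central metabolism, had 179, 219 and 173 CPM at 42 DAF, against 92.4, 66.0 and 48.6 CPM at 35 DAF (log2 fold change 1.47). A SWEET sugar transporter gene (Solyc04g064620.4.1) had 96.3, 173 and 162 CPM at 42 DAF, against 34.0, 15.8 and 4.95 CPM at 35 DAF (log2 fold change 2.98, and 3.79 without replicate 1 of 35 DAF).

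Chromatin and plastid genes had lower levels in part. In the epigenetic silencing list, 14 of 21 genes fell and 1 rose, with a median log2 fold change of -2.27. Its most abundant member, Solyc04g014870.3.1, had 28.0, 37.5 and 34.9 CPM at 42 DAF, against 61.2, 70.9 and 82.2 CPM at 35 DAF (log2 fold change -1.09), and dropped under the fold threshold at -0.98 without replicate 1 of 42 DAF or replicate 3 of 35 DAF. Of 29 genes of photosystem assembly and electron transport, 8 fell and none rose, with a median of -1.14. Among all genes tested, 15.0% were called lower and 12.4% higher. Solyc02g065400.3.1 had 2.28, 3.46 and 4.93 CPM at 42 DAF, against 16.9, 19.7 and 22.3 CPM at 35 DAF (log2 fold change -2.46, standard error 0.24, adjusted p = 2.81e-13), and fell relative to the embryo by 2.68 on the log2 scale (adjusted p = 1.28e-08). The members of this list were low throughout, so that the 2 most abundant had at most 22.3 CPM in any library.

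Hormone genes were mixed. Of 4 described ABA genes, 3 rose. The ABA receptor gene PYL10 (Solyc01g095700.3.1) had 59.7, 29.8 and 18.4 CPM at 42 DAF, against 14.2, 10.5 and 9.77 CPM at 35 DAF (log2 fold change 1.64, standard error 0.37, adjusted p = 0.000169). The gene of a 9-cis-epoxycarotenoid dioxygenase (Solyc05g053530.1.1), the enzyme that cleaves carotenoids in ABA synthesis, had 14.6, 3.15 and 5.17 CPM at 42 DAF, against 0.0495, 0.101 and 0.129 CPM at 35 DAF, where the counts were at the limit of detection. In the ontology list of the response to ABA, 12 of 63 genes rose and 8 fell, set against 12.4% and 15.0% over all genes tested, with a median of 0.45 that was 0.00 without replicate 3 of 42 DAF. Its most abundant member, Solyc01g065980.4.1, fell, with 160, 137 and 158 CPM at 42 DAF, against 615, 669 and 554 CPM at 35 DAF (log2 fold change -2.01, standard error 0.21, adjusted p = 2.71e-12). A gibberellin receptor gene (Solyc06g008870.2.1) had 251, 92.9 and 88.2 CPM at 42 DAF, against 66.9, 64.4 and 58.4 CPM at 35 DAF (log2 fold change 1.19). Replicate 1 decided this call, as the log2 fold change without it was 0.52 (adjusted p = 0.106).

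The lists of genes that restrain germination and of proanthocyanidins, condensed tannins of seed tissues, had more higher than lower calls. Over all genes tested, 12.4% were called higher and 15.0% lower. Of 18 genes of negative regulation of germination, 10 rose and 2 fell, with a median of 1.07. Without replicate 1 of 42 DAF 9 were higher and none lower, and without replicate 3 of 42 DAF 7 were higher and 4 lower. Solyc09g014640.2.1 had 62.2, 68.0 and 58.2 CPM at 42 DAF, against 35.7, 22.0 and 18.4 CPM at 35 DAF (log2 fold change 1.31, 0.99 with library totals). In the proanthocyanidin list 7 of 20 genes rose and 1 fell. A 2-oxoglutarate-dependent oxygenase gene (Solyc11g013110.2.1) had 463, 179 and 183 CPM at 42 DAF, against 10.3, 10.4 and 11.4 CPM at 35 DAF (log2 fold change 4.68, standard error 0.36, adjusted p = 7.74e-17), and 4.08 without replicate 1 of 42 DAF. The member with the highest mean, Solyc07g017780.4.1, had 233, 401 and 333 CPM at 42 DAF, against 355, 335 and 273 CPM at 35 DAF, with a log2 fold change of 0.01.

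**Figure D5:**
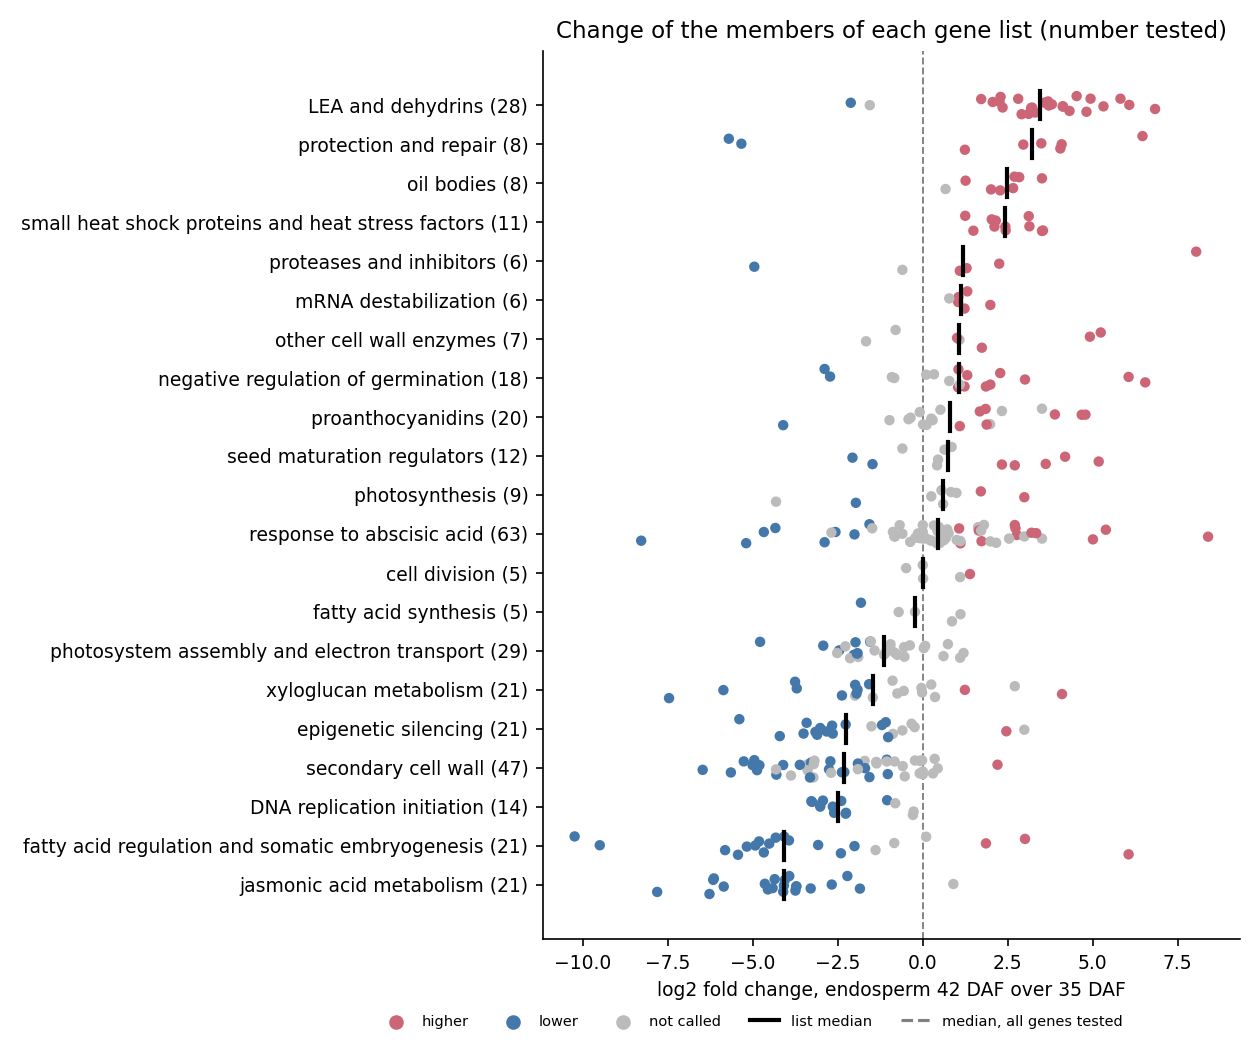
Log2 fold change of 42 over 35 DAF endosperm for each member of the gene lists with at least 5 tested genes, coloured by call, with the list median as a black bar and the median of all genes tested as a dashed line. Among the lists shown, which leave out the hub genes of the study, the LEA list has the highest median (3.45), and the jasmonic acid (-4.09) and fatty acid regulation (-4.08) lists have the lowest. The numbers in parentheses are genes tested.

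Genes of proteolysis differed widely in level. Of 6 described proteases and inhibitors, 4 rose and 1 fell. A vacuolar-processing enzyme gene (Solyc08g079160.3.1), whose product matures storage proteins, had 1390, 1470 and 1310 CPM at 42 DAF, against 730, 740 and 486 CPM at 35 DAF (log2 fold change 1.09). It fell under the fold threshold at 0.78 with library totals and at 0.92 without replicate 3 of 35 DAF. The cysteine proteinase gene Solyc11g008260.2.1 had 1760, 1290 and 1160 CPM at 42 DAF, against 372, 302 and 210 CPM at 35 DAF (log2 fold change 2.25, standard error 0.21, adjusted p = 1.83e-13). A type 2 proteinase inhibitor gene (Solyc06g065073.1.1) was among the largest rises of the comparison, with 1080, 248 and 133 CPM at 42 DAF, against 3.12, 1.46 and 0.947 CPM at 35 DAF (log2 fold change 8.05, standard error 0.75, adjusted p = 2.40e-13). Without replicate 1 of 42 DAF its log2 fold change was 6.70, and without replicate 1 of 35 DAF 8.66. The member that fell, a cysteine protease gene (Solyc02g061900.1.1), averaged 0.0404 CPM at 42 DAF and 1.42 CPM at 35 DAF.

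The remaining lists were short, and the shares over all genes tested were 12.4% higher and 15.0% lower. Of 6 genes of mRNA destabilization, 5 rose and none fell, with a median log2 fold change of 1.14. Of 9 described photosynthesis genes 2 rose and 1 fell, of 2 ribosomal protein genes 1 rose, and the single ethylene gene, an aminocyclopropane carboxylate oxidase (Solyc07g049530.3.1), fell, with at most 0.240 CPM at 42 DAF, against 0.693, 2.42 and 5.85 CPM at 35 DAF. All 25 hub genes of the module that the study linked to desiccation tolerance rose, with a median of 3.77, but this list was chosen on these same samples.

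At 10 CPM or more at the age of higher level, 2879 genes were called without overlap of libraries, and 322 had a usable description. Of these 322 genes, 274 rose and 48 fell, and the 12 largest changes each way were taken. Among all 10961 genes at that level, 1557 were called higher and 1384 lower, so the described genes lean towards those that rose. An F-box/LRR-repeat gene (Solyc12g009870.2.1) had 56.0, 10.7 and 2.38 CPM at 42 DAF, against at most 0.0990 CPM at 35 DAF. A DUF581 gene (Solyc06g009000.1.1) had 59.0, 5.76 and 1.96 CPM at 42 DAF, against at most 0.0990 CPM at 35 DAF. Both were at the limit of detection at 35 DAF, and their 42 DAF libraries were far apart with replicate 1 on top. An AWPM-19-like gene (Solyc09g090800.2.1), of a family of small membrane proteins, had 2430, 750 and 576 CPM at 42 DAF, against 14.8, 12.1 and 10.5 CPM at 35 DAF (log2 fold change 6.65, standard error 0.52, adjusted p = 4.38e-16), or 5.73 without replicate 1 of 42 DAF. A remorin gene (Solyc10g017540.4.1), of a plasma membrane protein family, had 335, 191 and 119 CPM at 42 DAF, against 5.10, 0.404 and 0.172 CPM at 35 DAF. An O-methyltransferase gene (Solyc02g077530.2.1) had 74.8, 28.4 and 30.7 CPM at 42 DAF, against 0.149, 0.353 and 0.0430 CPM at 35 DAF. A phosphatidylethanolamine-binding protein gene (Solyc09g005060.3.1) had 341, 110 and 109 CPM at 42 DAF, against 3.02, 1.66 and 1.46 CPM at 35 DAF (log2 fold change 6.51, and 5.74 without replicate 1 of 42 DAF). A non-specific lipid-transfer protein gene (Solyc01g081590.4.1) and a gene of the major facilitator superfamily (Solyc07g026920.1.1) had log2 fold changes of 7.20 and 6.52. The lipid-transfer gene stood at 6.03 without replicate 1 of 42 DAF, 8.68 without replicate 1 of 35 DAF and 6.57 without replicate 3 of 35 DAF, and the facilitator gene at 8.88 without replicate 1 of 35 DAF. Replicate 1 was the highest 42 DAF library in each of the 12 largest rises.

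Of the largest falls, a DUF239 gene (Solyc08g080700.3.1) had 0, 0.182 and 0.178 CPM at 42 DAF, against 37.9, 38.5 and 78.5 CPM at 35 DAF. An inhibitor of fructosidase gene (Solyc02g069330.2.1), whose relatives block invertases that split sucrose, had at most 0.182 CPM at 42 DAF, against 25.9, 25.6 and 42.0 CPM at 35 DAF. Both were thus nearly absent at 42 DAF. A gene described as ABA responsive elements-binding factor 2 (Solyc01g009510.2.1) had 1.20, 6.0 and 10.5 CPM at 42 DAF, against 128, 149 and 153 CPM at 35 DAF (log2 fold change -4.60, standard error 0.50, adjusted p = 4.77e-10), and -5.31 without replicate 3 of 42 DAF. A polyadenylate-binding protein gene (Solyc10g085750.2.1), whose product binds messenger tails, had 1.98, 3.58 and 6.59 CPM at 42 DAF, against 29.8, 52.1 and 49.5 CPM at 35 DAF (log2 fold change -3.43, standard error 0.33, adjusted p = 3.24e-13), and lay below the embryo change by 2.64 on the log2 scale (difference -2.64, adjusted p = 3.86e-06). Solyc01g013995.2.1 and Solyc01g108940.2.1, described as genes of B3 domain proteins, had at most 6.73 CPM in any 42 DAF library, against at least 25.2 CPM in each 35 DAF library. A LITTLE ZIPPER 3 gene (Solyc01g005180.1.1), a small regulator of homeodomain leucine zipper factors, had 1.20, 1.21 and 2.91 CPM at 42 DAF, against 23.4, 24.2 and 31.6 CPM at 35 DAF (log2 fold change -3.89). Over all genes, 64 were under 1 CPM in each 42 DAF library with a mean of 10 CPM or more at 35 DAF, and 51 showed the reverse.

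The most abundant transcripts of the endosperm at each age overlapped in part, and none has a description in the sources used here. Solyc09g082340.2.1 had 135000, 140000 and 120000 CPM at 42 DAF, against 44900, 42500 and 25100 CPM at 35 DAF (log2 fold change 1.82, standard error 0.27, adjusted p = 9.69e-08). Solyc01g090360.3.1 had 69200, 59000 and 39900 CPM at 42 DAF, against 12500, 10100 and 5440 CPM at 35 DAF (log2 fold change 2.58, standard error 0.52, adjusted p = 3.26e-05). The second gene was far lower in the other tissues, with means at 42 DAF of 541 CPM for the embryo and 513 CPM for the seed coat. Solyc09g025210.3.1, the most abundant gene at 35 DAF, had 41000, 73200 and 96800 CPM at 42 DAF, against 99300, 120000 and 82200 CPM at 35 DAF. It was not called (log2 fold change -0.52, adjusted p = 0.552), and like Solyc09g072560.4.1 and Solyc09g090150.4.1 it was lowest in replicate 1 and highest in replicate 3 of 42 DAF. The embryo of 42 DAF averaged 233000 CPM of Solyc09g025210.3.1, and the endosperm of 49 DAF 15800 CPM.

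Set against the other tissues, the log2 fold change was above that of the embryo in 1789 genes (7.25% of those tested) and below it in 1299 (5.26%). These are signed differences, so that a gene that fell further in the endosperm counts as below. Of the genes called higher in the endosperm, 1058 rose more than in the embryo and 60 less. Of those called lower, 727 fell further than in the embryo and 28 less far. Both splits are tilted in advance, since the genes were chosen by the endosperm change that is also part of the difference. The embryo had 1812 higher (7.34%) and 2970 lower (12%) calls of its own, and 79 genes were higher in the endosperm but lower in the embryo, with 42 the other way. The log2 fold change was above that of the seed coat in 2443 genes (9.90%) and below it in 2941 (11.9%), of which 1835 were called lower in the endosperm. The seed coat had 2076 higher (8.41%) and 2192 lower (8.88%) calls of its own, and 156 genes were higher in the endosperm but lower in the seed coat, with 331 the other way. With library totals, the numbers against the seed coat were 808 and 9305, so their split depends on the scaling.

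A zinc-finger homeodomain gene (Solyc04g014260.2.1) illustrates the difference from the embryo, with 77.7, 9.46 and 12.7 CPM in the endosperm at 42 DAF, against 1.78, 0.958 and 1.98 CPM at 35 DAF, while the embryo averaged 27.8 CPM at 42 DAF and 34.2 CPM at 35 DAF. The difference was 4.69 (standard error 0.54, adjusted p = 7.11e-10), and without replicate 1 of 42 DAF the rise in the endosperm was 2.80 in place of 4.39. A glycosyltransferase gene (Solyc03g078240.3.1) and the AWPM-19-like gene had differences of 4.71 and 5.06, and without replicate 1 of 42 DAF the rise of the glycosyltransferase gene was 4.11 in place of 5.49. In the other direction, a LanC-like gene (Solyc07g063320.3.1) had 599, 271 and 146 CPM in the endosperm at 42 DAF, against 18.2, 10.6 and 5.59 CPM at 35 DAF. It rose here by 4.89 (4.19 without replicate 1 of 42 DAF) and in the embryo by 10.17, where it averaged 0.0823 CPM at 35 DAF, and the difference was -5.28 (standard error 1.10, adjusted p = 0.000211). DRM1 (Solyc03g006360.3.1), a dormancy-associated gene repressed by auxin, had 70.4, 34.8 and 21.8 CPM in the endosperm at 42 DAF, against 4.46, 2.47 and 2.19 CPM at 35 DAF. Its log2 fold change was also smaller than in the embryo (difference -3.69, adjusted p = 0.00946). The embryo averaged 16.6 CPM at 42 DAF (standard deviation 22.2) and 0.0921 CPM at 35 DAF, near the limit of detection. The endosperm thus had the higher mean at both ages. A heme-binding protein gene (Solyc07g061790.3.1) fell in the endosperm, with 0.720, 1.46 and 1.25 CPM at 42 DAF, against 8.47, 12.6 and 13.1 CPM at 35 DAF, and averaged 6.11 CPM in the embryo of 42 DAF and 3.83 CPM in that of 35 DAF (difference -3.99, standard error 0.82, adjusted p = 0.000181).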

How the data were processed

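Per the Methods, the authors filtered single-end reads and quantified them with Salmon against the ITAG 4.0 gene models of tomato. They deposited an estimated count per gene and library, neither scaled nor filtered. Of these values, 10.5% are not whole. Strand, paralogues and gene length were not analysed here, and 0 gene identifiers matched the reference gene table, so no promoter or protein sequences were used and the planned motif search was not run.

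Estimated counts were rounded. In edgeR 4.0.16 (R 4.3.3), filterByExpr over 28 groups kept 24676 genes. After TMM scaling, all 84 libraries entered the same quasi-likelihood model, in which each group had its own coefficient, and p-values were adjusted over the genes kept by the method of Benjamini and Hochberg. Standard errors come from the log2 fold change and its F statistic. Intervals are not given, and a floor of 3 counts per library covers counting error only. Tissue differences were contrasts of the same fit. DESeq2 1.42.0, other scalings, no filter, fits of the compared libraries alone and leaving out each library were alternatives. The fit was tested on simulated data.

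Genes named are the regulators; the 12 largest rises and falls among described, called genes that averaged 10 CPM or more at the age of higher level and whose libraries did not overlap; per list, the 2 most abundant members and the largest called rise and fall; the 5 most abundant genes per age; and, among described genes under the same conditions, the 3 whose signed change lies farthest above and the 3 farthest below that of the embryo. Not all of them are described in the text. Other list members were chosen after their values were seen. Members and lists were chosen with earlier results of these data known. Lists came from identifiers and descriptions in the study's supplementary tables, held in part, and ontology lists are shortened there. The histone and starch lists had no member.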

Additional observations from a re-analysis of the deposited data

Results flagged for a closer look

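The difference in change between the tissues was tested as a contrast, and results past both thresholds are given here. The endosperm change exceeded the embryo change in 1789 genes and was below it in 1299, and it exceeded the seed coat change in 2443 genes and was below it in 2941. Among the regulators, the endosperm change exceeded that of the embryo on the log2 scale by 3.69 for SlDOG1-1, 3.13 for SlABI3-2, 2.65 for SlABI5, 1.58 for SOMNUS and 1.10 for PROCERA. For SlFUS3 it was lower (difference -1.87, standard error 0.70, edgeR adjusted p = 0.0482), with 16.6% of the embryo marker level in replicate 3 of the 42 DAF endosperm.

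Among other named genes, the difference was 5.06 for the AWPM-19-like gene Solyc09g090800.2.1, 4.71 for the glycosyltransferase Solyc03g078240.3.1 and 4.69 for the zinc-finger homeodomain gene Solyc04g014260.2.1. It was -5.28 for the LanC-like gene Solyc07g063320.3.1, -3.99 for the heme-binding protein gene Solyc07g061790.3.1 and -3.69 for DRM1. What part the embryo RNA of that library has in these differences was not tested. Groups of 3 libraries were not tested for single outlying samples.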

How the results depend on the processing

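Over the alternatives run, between 2107 (library totals) and 3118 (without replicate 3 of 42 DAF) genes were higher at 42 DAF, and between 2977 (replicate block) and 5069 (library totals) lower. Leaving out 1 endosperm library gave 2651 to 3118 higher and 3143 to 3897 lower, and DESeq2 gave 2738 and 3688. Changes above that of the embryo numbered 1174 in a fit of the 12 libraries of both tissues, and 1008 with a replicate block, for a total of 1910 differences with the block, against 3088. Library totals gave 808 changes above and 9305 below that of the seed coat, 10113 in all, against 2443, 2941 and 5384. The replicate numbers were not taken as pairs between ages, since the deviations of same-numbered endosperm libraries had correlations of -0.072, 0.126 and 0.001. In the embryo these correlations were 0.243, 0.033 and 0.259, and in the seed coat -0.036, 0.088 and 0.102. Pairing between tissues of the same age and replicate number was not tested. With the replicate block the 6 libraries gave 2129 higher and 2977 lower genes, and 2439 and 3383 without it. Of 127 named genes, 103 were called, 85 of them under every alternative run, and no call changed direction. Of 32 list medians, 27 kept their sign under every alternative. The exceptions were cell division, fatty acid synthesis and jasmonate and lipoxygenase, and, at a value of 0.00, photosynthesis and the response to ABA. The cause of these moves was not tested. With 3 libraries an age, genes near 3 counts per library have no reliable fold change.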
